A study of Mus musculus with 15 samples.

Results

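The genes described here are those of the mouse major histocompatibility complex (MHC), called H2, together with the genes that prepare and load its peptides. The members were every row of the gene count table whose symbol starts with H2-, which gave 42 rows, and 9 named partners: B2m, Cd74, Ciita, Nlrc5, Tap1, Tap2, Tapbp, Psmb8 and Psmb9. That made 51 of the 23284 gene symbols in the table. The study addressed the role of Hmgb1, a nuclear chromatin protein that can also act as a danger signal outside the cell, in the formation of liver cancer. Polyadenylated RNA was sequenced in bulk from 15 mouse liver libraries.

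The first group held 6 liver tumours from floxed control mice (Hgmb1fl/fl in the labels), which carry floxed Hmgb1 alleles and no stated Cre. The second held 6 liver tumours from mice with the same floxed alleles and Albumin-Cre (Hgmb1Dhep in the labels). Albumin-Cre acts in cells of the hepatocyte lineage, so immune and vascular cells of these livers keep Hmgb1. Both tumour groups had received diethylnitrosamine (DEN), a liver carcinogen, at 25 mg/kg on postnatal day 15. Weekly carbon tetrachloride, a liver toxin, followed at 0.5 ul/g in corn oil from week 8 for 15 weeks. The third group held 3 normal livers of C57Bl/6 control mice, for which no treatment, age or floxed allele is stated. The strain of the tumour mice is not stated either, so strain, treatment and tumour cannot be told apart in any comparison with normal liver. Nothing in the labels says that tumours of a group came from separate mice, so the p-values measure only the spread between these samples, which may be technical.

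MHC class I molecules consist of a heavy chain and B2m, the invariant light chain. They display peptides that the immunoproteasome cuts, the TAP transporter moves into the endoplasmic reticulum and tapasin helps to load, and Nlrc5 drives transcription of many of these genes. MHC class II molecules pair an alpha and a beta chain around the invariant chain Cd74, exchange peptide with the help of H2-DM, and depend on the transactivator Ciita; they are typical of dendritic cells, macrophages and B cells. In liver, hepatocytes carry class I, while Kupffer cells, dendritic cells and sinusoidal endothelium carry class II. The H2 genes are among the most variable between inbred strains. In strains of the H2-b haplotype, such as C57BL/6, the E alpha gene has lost its promoter and is not transcribed, which is why it is listed as a pseudogene, H2-Ea-ps. Reads were aligned to mm9, which represents C57BL/6J, so transcripts of another haplotype could be counted incompletely or under a related H2 symbol.

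The promoter windows of 5 chain genes are printed to show the motifs by which class II and class I genes are known to be controlled. They are the 180 bases before the annotated start in RefSeq (GRCm38.p6, which is not the build of the count table). The genes are the class II chain genes H2-Aa and H2-Eb1 and the class I heavy chain genes H2-K1, H2-D1 and H2-Q10. H2-Aa lies on the minus strand at chr17:34287824-34288003, H2-Eb1 on the plus strand at chr17:34305687-34305866 and H2-K1 on the minus strand at chr17:34000348-34000527. H2-D1 lies on the plus strand at chr17:35262914-35263093 and H2-Q10 on the plus strand at chr17:35469909-35470088. Capitals mark GCAACT, the core of the class II X box, and CTGATTGG, the Y box with its reversed CCAAT. In the class I windows they mark only GGGGATTCCC, a kappa-B site, and AGTTTCACTTCT, an interferon-stimulated response element.
H2-Aa: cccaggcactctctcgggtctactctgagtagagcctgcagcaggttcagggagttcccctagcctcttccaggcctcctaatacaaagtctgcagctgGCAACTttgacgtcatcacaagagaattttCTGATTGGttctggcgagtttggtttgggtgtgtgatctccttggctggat
H2-Eb1: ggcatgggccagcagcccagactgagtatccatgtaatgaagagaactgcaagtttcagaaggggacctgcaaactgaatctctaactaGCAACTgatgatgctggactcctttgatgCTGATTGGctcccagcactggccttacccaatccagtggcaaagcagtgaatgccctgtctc
H2-K1: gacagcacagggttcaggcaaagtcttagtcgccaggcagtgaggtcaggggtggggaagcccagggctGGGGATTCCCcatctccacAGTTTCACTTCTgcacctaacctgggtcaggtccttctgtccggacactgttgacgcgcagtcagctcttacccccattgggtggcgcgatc
H2-D1: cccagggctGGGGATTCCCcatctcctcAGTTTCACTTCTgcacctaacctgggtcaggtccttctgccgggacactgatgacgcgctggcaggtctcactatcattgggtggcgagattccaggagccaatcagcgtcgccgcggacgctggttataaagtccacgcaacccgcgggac
H2-Q10: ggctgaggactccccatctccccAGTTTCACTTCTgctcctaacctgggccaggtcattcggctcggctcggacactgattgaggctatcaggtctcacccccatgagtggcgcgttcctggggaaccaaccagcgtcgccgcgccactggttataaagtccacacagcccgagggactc
The letters of each motif were chosen after these promoters had been read, those of class I from the H2-K1 window, and both strands of 32851 mouse promoter windows of the same length were searched for them. GCAACT occurred in 6.51% of all windows and CTGATTGG in 3.45%, and both together in 0.201%. GGGGATTCCC occurred in 0.067% of all windows. AGTTTCACTTCT occurred in 8 windows (0.0244%), of which 7 belonged to genes with an H2- symbol. H2-K1 and H2-D1 held both class I motifs, while the H2-Q10 window held AGTTTCACTTCT without GGGGATTCCC. H2-Q10 encodes a class I heavy chain that the liver secretes. Over the members with a promoter entry, GCAACT was in 3 of 8 class II chain and editor genes (H2-Aa, H2-Eb1 and H2-Eb2) and in 0 of 22 class I heavy chain rows. CTGATTGG was in 4 of the 8 and in 12 of the 22, H2-D1 among them, where it is left in lower case. GGGGATTCCC was in 0 of the 8 and in 4 of the 22 (H2-D1, H2-K1, H2-Q6 and H2-Q7), and AGTTTCACTTCT in 0 of the 8 and in 6 of the 22. The presence of a motif in the windows it was read from was fixed by that choice. A match of letters is a description and not a measured site, and binding was not measured in this study.

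Library totals ran from 18973246 to 30929442 counts, and expression is given as CPM, counts divided by the TMM-scaled library size and brought to a common total. TMM factors, which correct for a few abundant transcripts, ran from 0.8131 to 1.3729. The deleted gene followed its label: mean Hmgb1 was 27.9 ± 3.36 CPM (SD) over the 6 floxed tumours, 14.8 ± 2.76 CPM over the 6 Hmgb1-deleted tumours, or 52.8% of the former, and 23.9 ± 6.07 CPM over the 3 normal livers. The tumour groups differed by a two-sided exact permutation test at p = 0.00216, or 0.00649 adjusted over 3 comparisons. The labelled tissue carried its defining transcripts, with a summed level of the hepatocyte markers measured (5 of 6, among them Alb, Apoa1 and Ttr) of at least 68060 CPM in every library. In bulk RNA, fewer cells of a type and less RNA per cell cannot be told apart.

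Of the 51 members, 36 had enough counts to be tested in at least 1 comparison and 15 in none. No read was counted in any library for 8 of these 15: H2-M1, H2-M9, H2-M10.3, H2-M10.4, H2-M10.5, H2-M11, H2-Q9 and H2-T9. The other 7 (H2-M5, H2-M10.1, H2-M10.2, H2-M10.6, H2-Q7, H2-T3 and H2-T22) had at most 73 counts over all 15 libraries. Sequence shared between members bears on this: of 48 members with a GENCODE transcript, 31 shared some run of 50 bases with another gene, and 10 shared over 20% of theirs. H2-T10 shared 42.9%, mostly with H2-T22 (40.2%), and H2-Q7 shared 34.9%. H2-K1 shared 8.79%, while H2-Aa, H2-Ab1, H2-Eb1 and H2-Ea-ps shared 0%. Values of the H2-Q and H2-T genes are therefore uncertain as values of 1 gene.

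Libraries stood apart at the H2 locus before any group comparison. H2-Ea-ps, the E alpha row, had 0, 1 and 0 counts in the 3 normal livers, which are labelled C57Bl/6. It had 1 and 2 counts in Hmgb1-deleted tumours 3 and 4. In the other 10 tumours it had 564 to 2334 counts. Set against H2-Eb1, its partner chain gene, in the same library, H2-Ea-ps amounted to at most 0.225% in the 5 libraries near 0. It amounted to 38.0% to 48.0% in 8 tumours, namely floxed tumours 1, 2, 4 and 6 and Hmgb1-deleted tumours 1, 2, 5 and 6. In floxed tumours 3 and 5 it amounted to 94.2% and 90.2%. The libraries thus fell at separate levels with no library between them, and both low tumours were Hmgb1-deleted while both high tumours were floxed.

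Class I rows differed between the same libraries. H2-K1, a classical heavy chain, was 1011 to 1311 CPM in the 5 libraries with at most 2 H2-Ea-ps counts, 543 to 969 CPM in the 8 tumours at the middle level, and 491 and 334 CPM in floxed tumours 3 and 5. H2-Q2, a heavy chain row of the Q region, took the opposite order at 0.122 to 0.699 CPM, 7.76 to 13.8 CPM, and 23.0 and 16.8 CPM. H2-K1 counts as a percentage of H2-D1 counts were 225% to 313%, 89.0% to 141%, and 52.6% and 49.0% respectively. H2-K2, a K-region row, was 23.1 and 27.9 CPM in Hmgb1-deleted tumours 3 and 4 and 7.13 to 15.4 CPM in the other 10 tumours. These are descriptions of libraries and not tested groups. The part of H2 haplotype in the counts was not tested, since no strain is given for the tumour mice.

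**Figure D1:**
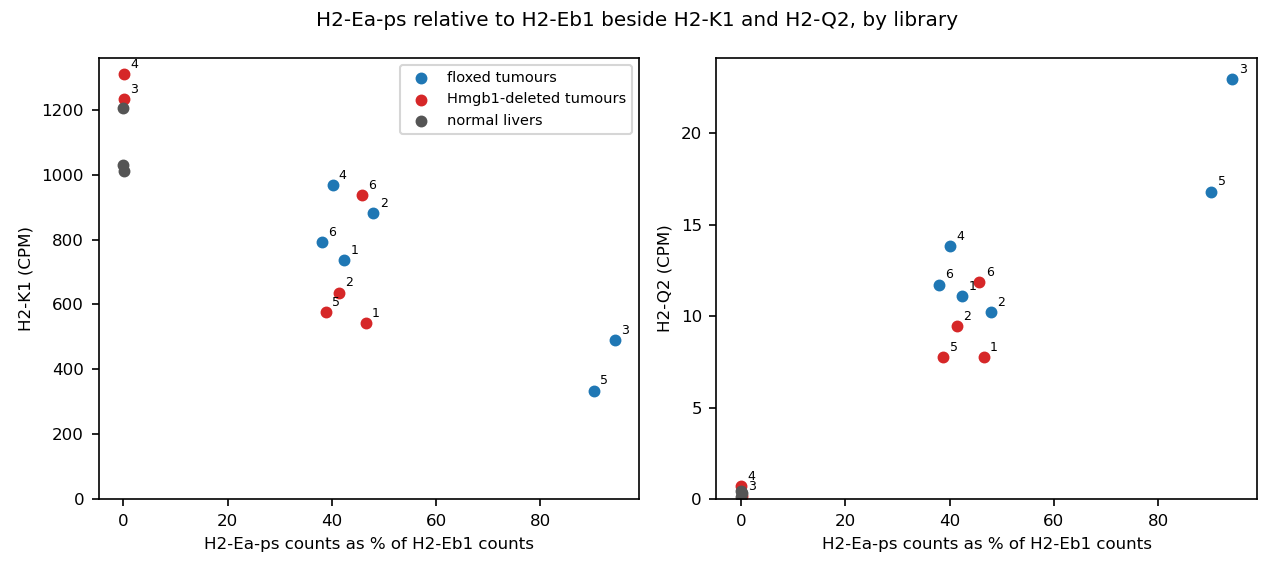
H2-K1 and H2-Q2 levels (CPM, y axes) against H2-Ea-ps counts as a percentage of H2-Eb1 counts (x axis), 1 point per library, coloured by group and numbered by replicate. The points sit at 3 separate places on the x axis: 5 libraries at or below 0.225%, 8 tumours between 38.0% and 48.0%, and 2 floxed tumours at 90.2% and 94.2%.

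Tumours of both genotypes had more RNA of the class II chains, their chaperone and their editors than normal liver. In floxed tumours against normal liver, 34 of the 51 members were tested, and 23 were higher, 1 was lower and 10 did not pass (edgeR's quasi-likelihood test, called at an adjusted p under 0.05). Over all genes tested in that comparison, 48.7% were called, 24.9% as higher. In Hmgb1-deleted tumours against normal liver, 36 members were tested, with 17 higher, 0 lower and 19 not passing, against 34.7% of all genes called and 18.1% called higher. The median log2 fold change over the members tested was 1.14 in floxed tumours (all genes 0.06) and 0.72 in Hmgb1-deleted tumours (all genes 0.05). Both comparisons use the same 3 normal livers. Without floxed tumours 3 and 5 the first count was 25 (24 higher), and without Hmgb1-deleted tumours 3 and 4 the second was 16, all higher.

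Cd74, the invariant chain, ran from 139 to 361 CPM in floxed tumours with a median of 233 CPM. In Hmgb1-deleted tumours it ran from 133 to 569 CPM (median 256 CPM), and in normal livers it was 68.7, 52.2 and 30.0 CPM. Every tumour was above every normal liver. The share of all genes without such overlap is not given, here or for the rows below. On the log2 scale Cd74 was higher by 2.26 ± 0.36 (SE, adjusted p = 0.000675) in floxed and by 2.71 ± 0.58 (adjusted p = 0.00836) in Hmgb1-deleted tumours.

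The chains themselves moved alike. H2-Aa, the A alpha chain, was 43.2 to 152 CPM in floxed tumours (median 91.6 CPM), 66.5 to 245 CPM in Hmgb1-deleted tumours (median 130 CPM) and 30.9, 23.0 and 15.9 CPM in normal livers. Its log2 fold change over normal liver was 2.08 ± 0.38 (SE, adjusted p = 0.00141) in floxed and 2.69 ± 0.52 (adjusted p = 0.00577) in Hmgb1-deleted tumours. H2-Ab1, the A beta chain, had mean levels of 75.6 ± 29.2 CPM (SD, n = 6), 104 ± 54.7 CPM (SD, n = 6) and 18.4 ± 4.60 CPM (SD, n = 3) in the same order. That made it 4.11-fold higher in floxed tumours (adjusted p = 0.00117) and 5.66-fold higher in Hmgb1-deleted tumours (adjusted p = 0.00561). H2-Eb1, the E beta chain, was 42.6 to 140 CPM, 56.2 to 224 CPM and 13.6 to 22.1 CPM, with ratios of means of 4.92 (adjusted p = 0.000546) and 7.06 (adjusted p = 0.00547). For all 3 chains no tumour library overlapped the normal livers.

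H2-Ea-ps was called higher in both comparisons as well, with a single count in normal liver. The 6 floxed tumours together held 6457 counts of it and the 6 Hmgb1-deleted tumours 6391. After scaling to library size the ratios to normal liver were 3450 (95% counting interval 619 to 136000) and 3110 (558 to 123000), which cover counting error only. The second ratio is over all 6 Hmgb1-deleted tumours, of which tumours 3 and 4, with 1 and 2 counts, lie with the normal livers.

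**Figure D2:**
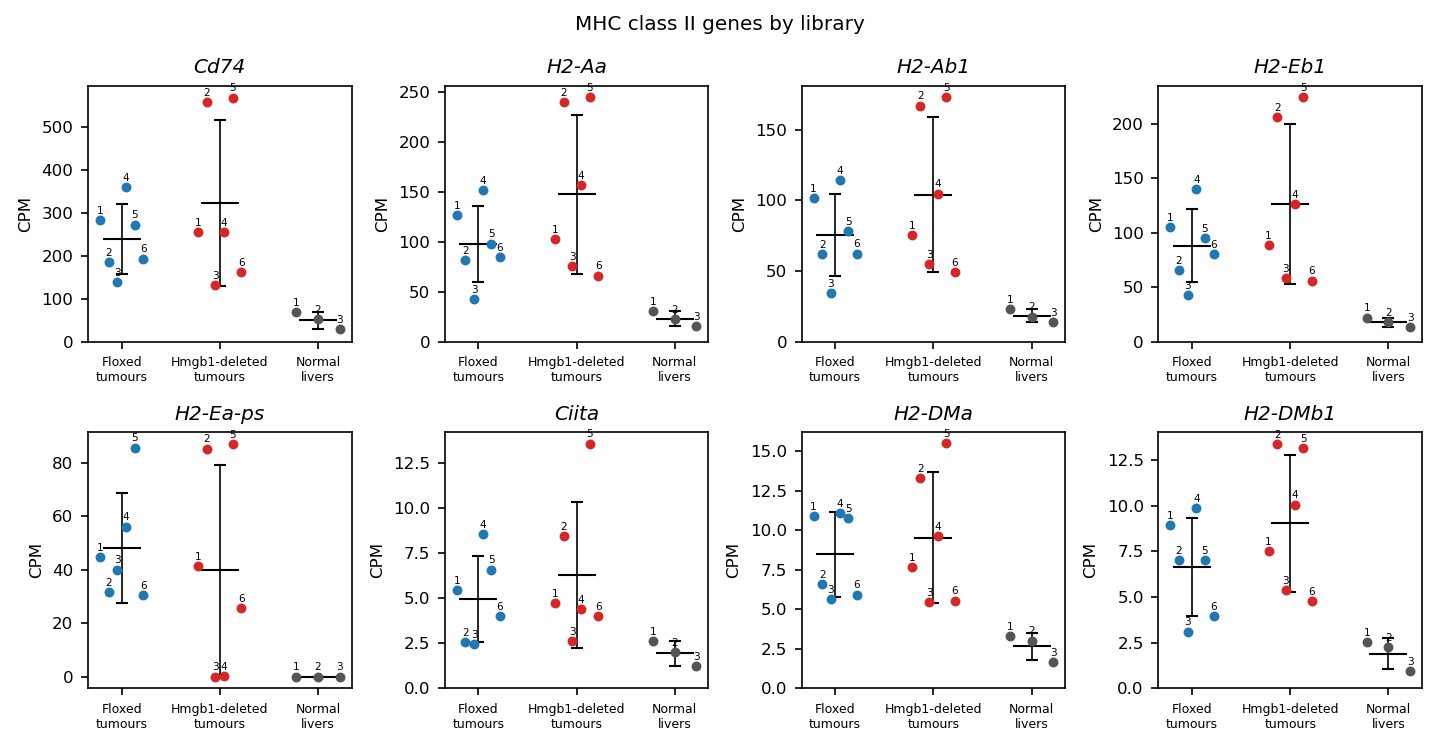
Levels (CPM, y axis from 0) of the MHC class II genes and their partners in each library, by group; dots are libraries with their replicate number, the dash is the group mean and the bar 1 SD. Normal livers lie below every tumour for Cd74, H2-Aa, H2-Ab1 and H2-Eb1, and Hmgb1-deleted tumours 2 and 5 are the highest libraries for these 4 genes.

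H2-DMa, H2-DMb1 and H2-DMb2 encode H2-DM, which releases the Cd74 remnant from class II and lets peptide bind. Mean H2-DMa was 8.48 ± 2.68 CPM (SD) over 6 floxed tumours, 9.51 ± 4.14 CPM over 6 Hmgb1-deleted tumours and 2.66 ± 0.865 CPM over 3 normal livers. Its log2 fold changes over normal liver were 1.67 ± 0.34 (SE, adjusted p = 0.00246) and 1.86 ± 0.42 (adjusted p = 0.0103). H2-DMb1 rose by 1.8 ± 0.45 (adjusted p = 0.00767) and 2.27 ± 0.46 (adjusted p = 0.00711). H2-DMb2 rose by 1.65 ± 0.46 (adjusted p = 0.0131) and 1.61 ± 0.44 (adjusted p = 0.0210). Reads of the neighbouring DMb genes may be split between them, since 27.2% of H2-DMb1 and 25.2% of H2-DMb2 was shared with the other. H2-Ob, a chain of the H2-DM inhibitor H2-O, did not pass in either comparison, with 1.07 to 5.02 CPM in floxed tumours, 1.06 to 3.67 CPM in Hmgb1-deleted tumours and 1.48 to 2.0 CPM in normal livers. Its partner H2-Oa stayed under 1 CPM in every library.

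Ciita, the class II transactivator, was 2.45 to 8.56 CPM in floxed tumours (median 4.74 CPM), 2.60 to 13.6 CPM in Hmgb1-deleted tumours (median 4.57 CPM) and 2.60, 2.0 and 1.23 CPM in normal livers. It was higher in floxed tumours by 1.35 ± 0.46 on the log2 scale (SE, adjusted p = 0.0311), although 1 normal liver overlapped them. In Hmgb1-deleted tumours it was higher by 1.72 ± 0.55 (adjusted p = 0.0366).

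Ciita and H2-Ab1 varied together among the 12 tumours, with Pearson's r = 0.878 (permutation p = 0.00014, adjusted over 4 relations 0.00056) and Spearman's rho = 0.895 (permutation p = 0.00014, adjusted 0.00056), on log2(CPM + 1). Without the 2 tumours farthest from the median of Ciita r was 0.829 (permutation p = 0.00358). Within the 6 floxed tumours r was 0.863 (exact permutation p = 0.0194) and within the 6 Hmgb1-deleted tumours 0.884 (exact permutation p = 0.0250). The 3 other relations computed did not pass. Nlrc5 with H2-K1 gave r = 0.00372 (permutation p = 0.983, adjusted 0.983; rho = -0.112, p = 0.732, adjusted 0.732), with r = -0.442 without the 2 farthest tumours, 0.21 within floxed and 0.50 within Hmgb1-deleted tumours. The B cell receptor gene Cd79a with H2-Ab1 gave r = -0.459 (permutation p = 0.134, adjusted 0.179; rho = -0.497, p = 0.106, adjusted 0.141), which was -0.0285 without the 2 farthest, 0.249 within floxed and -0.817 within Hmgb1-deleted tumours. Irf1, an interferon-responsive transcription factor, with Psmb9 gave r = 0.606 (permutation p = 0.0444, adjusted 0.0888; rho = 0.573, p = 0.0568, adjusted 0.114), and 0.273 without the 2 farthest. Within the 6 floxed tumours it gave r = 0.669 (exact permutation p = 0.153) and within the 6 Hmgb1-deleted tumours r = 0.787 (exact permutation p = 0.0694), neither of which passed.

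The class II genes varied less against each other within a library than in level between libraries. Across the 15 libraries Cd74 spanned a 19-fold range of levels and H2-Eb1 a 16.5-fold range. H2-Eb1 counts as a percentage of Cd74 counts spanned 30.6% to 49.4%, a 1.61-fold range. H2-Ab1 amounted to 24.7% to 47.0% of Cd74, H2-Aa to 31.1% to 61.4% and H2-DMa to 2.38% to 5.78%. Ciita amounted to 1.39% to 4.11% of Cd74, and the 3 normal livers, at 3.79% to 4.11%, were above all 12 tumours. These percentages compare counts and not molecules, since transcript length was not corrected.

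No class II gene passed the test between the tumour genotypes. Among the 34 members tested in Hmgb1-deleted against floxed tumours, 2 were higher, 3 lower and 29 did not pass, which is 14.7% called against 7.78% of all genes tested (4.45% higher and 3.33% lower). The median log2 fold change over the members tested was -0.21 (all genes 0.02). The log2 differences were 0.46 ± 0.38 for Cd74 (SE, adjusted p = 0.490), 0.63 ± 0.37 for H2-Aa (adjusted p = 0.324), 0.49 ± 0.36 for H2-Ab1 (adjusted p = 0.432) and 0.55 ± 0.38 for H2-Eb1 (adjusted p = 0.405). Hmgb1-deleted tumours 2 and 5 were the highest of all libraries for these 4 genes, with 558 and 569 CPM of Cd74. Without them the Cd74 difference was -0.26 and that of H2-Ab1 was -0.10. Leaving out the highest libraries of 1 group lowers the difference by construction, so the change of sign is a description only.

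The class I light chain and heavy chains did not move as 1 group. B2m, the light chain, was 1704 to 3357 CPM in floxed tumours (median 3144 CPM), 2128 to 2944 CPM in Hmgb1-deleted tumours and 1776 to 2294 CPM in normal livers, and passed in no comparison. H2-D1, a classical heavy chain, was 651 to 932 CPM in floxed tumours (median 759 CPM), 423 to 665 CPM in Hmgb1-deleted tumours (median 512 CPM) and 350, 324 and 387 CPM in normal livers. It was higher than normal liver in floxed tumours by 1.12 ± 0.18 on the log2 scale (SE, adjusted p = 0.000694) and in Hmgb1-deleted tumours by 0.57 ± 0.19 (adjusted p = 0.0404). The second call was lost in 11 of 22 other settings, among them the fit without Hmgb1-deleted tumours 3 and 4 (adjusted p = 0.0659).

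H2-K1, the other classical heavy chain, passed in no comparison. It was 334 to 969 CPM in floxed tumours, 543 to 1311 CPM in Hmgb1-deleted tumours and 1011 to 1207 CPM in normal livers. Every floxed tumour was below every normal liver, yet the difference of -0.62 ± 0.31 did not pass (SE, adjusted p = 0.113). In Hmgb1-deleted tumours the difference from normal liver was -0.30 ± 0.32 (adjusted p = 0.469).

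**Figure D3:**
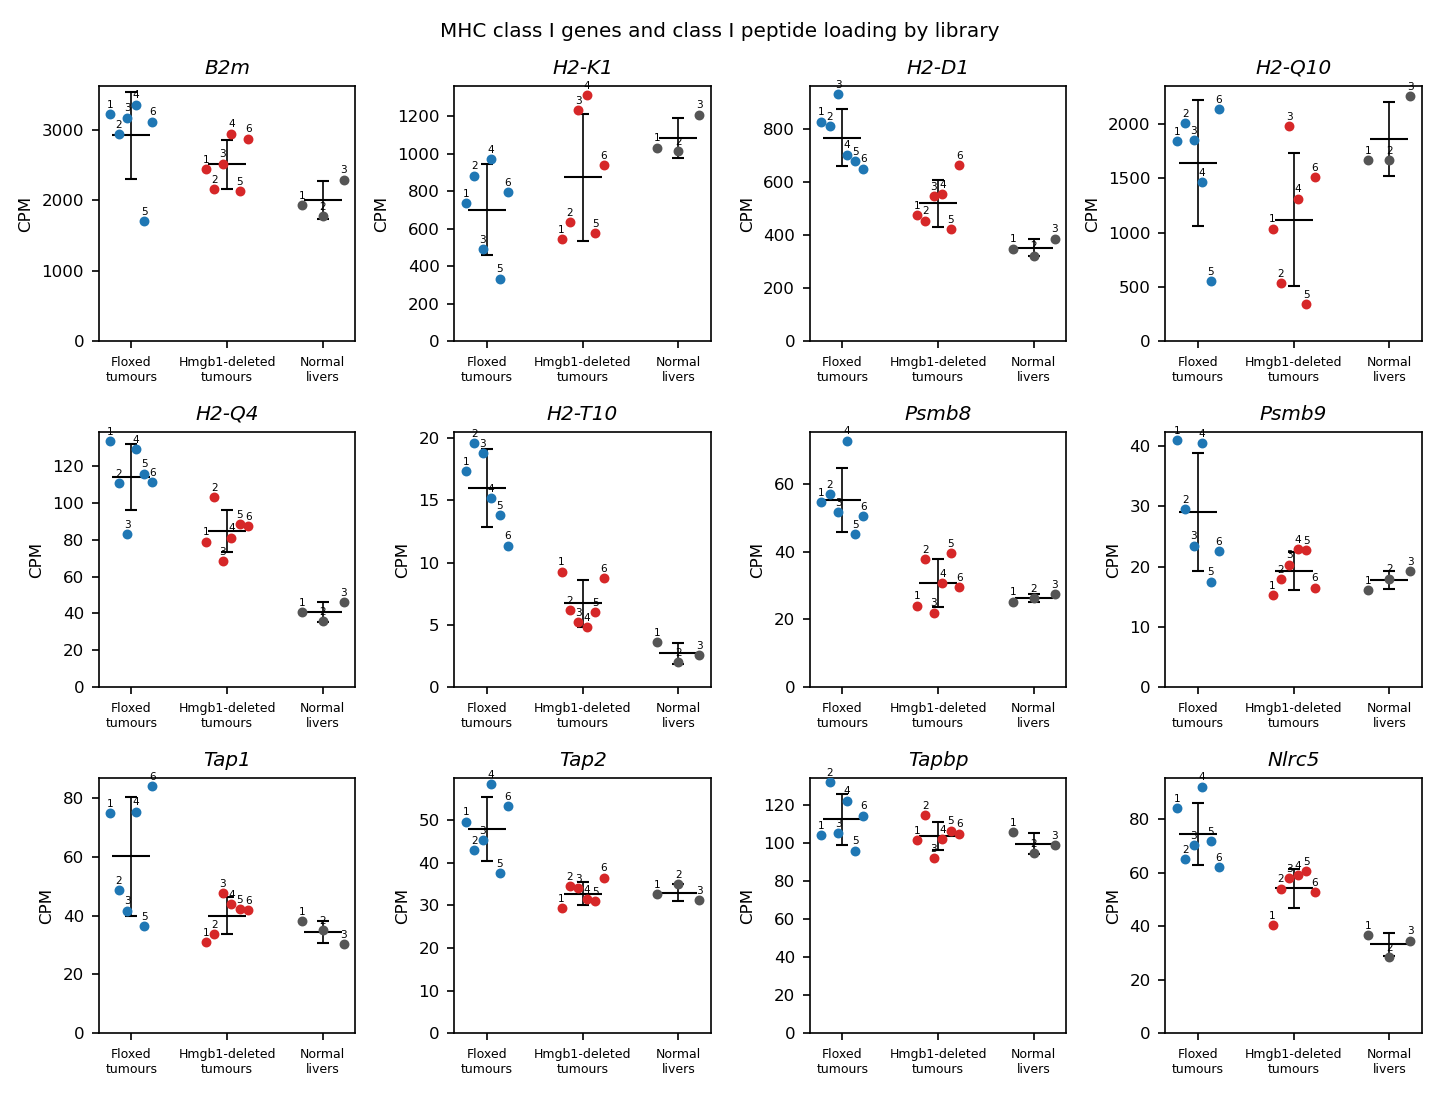
Levels (CPM, y axis from 0) of class I genes and class I loading genes in each library, by group; dots are libraries with their replicate number, the dash is the group mean and the bar 1 SD. Every floxed tumour is above every Hmgb1-deleted tumour for H2-T10, Psmb8, Tap2 and Nlrc5, and for H2-K1 Hmgb1-deleted tumours 3 and 4 are the highest libraries.

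Several rows of the Q, T and M regions, which encode nonclassical heavy chains, were higher in tumours than in normal liver. Mean H2-Q4 was 114 ± 17.8 CPM (SD) over 6 floxed tumours, 84.6 ± 11.6 CPM over 6 Hmgb1-deleted tumours and 40.8 ± 5.23 CPM over 3 normal livers, with log2 fold changes over normal liver of 1.48 ± 0.18 (SE, adjusted p = 9.863e-05) and 1.07 ± 0.16 (adjusted p = 0.00205). H2-M3, which presents N-formylated peptides, rose by 1.26 ± 0.26 (adjusted p = 0.00311) and 0.91 ± 0.19 (adjusted p = 0.00695). H2-Q8 rose in floxed tumours by 1.47 ± 0.22 (adjusted p = 0.000404) and gave 0.80 ± 0.29 in Hmgb1-deleted tumours (adjusted p = 0.0568). H2-T24 rose in floxed tumours by 1.01 ± 0.31 (adjusted p = 0.0209). H2-M2 was seen at 2, 3 and 0 counts in the normal livers and at 3 to 125 counts in the tumours, and was called higher in both comparisons (adjusted p = 0.0160 and 0.0132).

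H2-Q2 was 10.2 to 23.0 CPM in floxed tumours and 0.122 to 0.443 CPM in normal livers, a log2 difference of 5.61 ± 0.45 (SE, adjusted p = 1.136e-05). In Hmgb1-deleted tumours it was 7.76, 9.44, 7.76 and 11.8 CPM in tumours 1, 2, 5 and 6 but 0.159 and 0.699 CPM in tumours 3 and 4. The latter 2 lie with or near the normal livers, as they did for H2-Ea-ps. The log2 difference from normal liver was 4.43 ± 1.28 (adjusted p = 0.0259) with all 6 tumours and 4.98 (adjusted p = 0.000781) without those 2. Those 2 stood apart by H2-Q2 itself as well as by H2-Ea-ps. The larger difference without them was therefore fixed by that choice, and its p-value is no separate evidence.

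H2-Q1 was higher in Hmgb1-deleted than in floxed tumours. It was 2.74 to 17.9 CPM in floxed tumours (median 9.97 CPM), 16.3 to 66.8 CPM in Hmgb1-deleted tumours (median 37.1 CPM) and 1.75, 1.59 and 3.50 CPM in normal livers. A single Hmgb1-deleted tumour, at 16.3 CPM, overlapped the floxed tumours. The log2 difference between the genotypes was 2.11 ± 0.50 (SE, adjusted p = 0.0237). Without Hmgb1-deleted tumours 3 and 4 it was 2.15 (adjusted p = 0.0723), and without floxed tumours 3 and 5 as well it was 1.77 (adjusted p = 0.163). Against normal liver it was higher by 2.11 ± 0.67 in floxed (adjusted p = 0.0250) and 4.21 ± 0.55 in Hmgb1-deleted tumours (adjusted p = 0.00142).

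H2-T10 was the most clearly separated row in the genotype comparison. Its transcript shares much sequence with H2-T22, and both are known as ligands of a subset of gamma delta T cells. Floxed tumours 1 to 6 had 17.3, 19.6, 18.8, 15.2, 13.8 and 11.4 CPM. Hmgb1-deleted tumours 1 to 6 had 9.29, 6.17, 5.26, 4.84, 6.04 and 8.78 CPM, and normal livers 3.62, 2.0 and 2.56 CPM, so that none of the 3 groups overlapped. Hmgb1-deleted tumours were lower than floxed tumours by a log2 value of -1.22 ± 0.20 (SE, adjusted p = 0.00540), and both groups were higher than normal liver (2.55 ± 0.25, adjusted p = 3.532e-05; 1.33 ± 0.30, adjusted p = 0.00977). The difference between genotypes was -1.09 (adjusted p = 0.0239) without Hmgb1-deleted tumours 3 and 4. It was -1.08 (adjusted p = 0.0666) without floxed tumours 3 and 5 as well.

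Of the 7 class I partner genes tested between the genotypes, 2 were lower in Hmgb1-deleted tumours, Psmb8 and Tap2, beside 3.33% of all genes called lower. Psmb8, a catalytic subunit of the immunoproteasome, was 54.5, 56.9, 51.5, 72.7, 45.1 and 50.5 CPM in floxed tumours 1 to 6. It was 24.0, 37.8, 22, 30.6, 39.6 and 29.6 CPM in Hmgb1-deleted tumours 1 to 6, and 25.3, 26.2 and 27.4 CPM in normal livers. The tumour groups did not overlap, and Hmgb1-deleted tumours were lower by -0.83 ± 0.17 on the log2 scale (SE, adjusted p = 0.0118). Tap2, a subunit of the peptide transporter, was 37.5 to 58.4 CPM in floxed tumours, 29.2 to 36.5 CPM in Hmgb1-deleted tumours and 31.3 to 35.0 CPM in normal livers. It was lower in Hmgb1-deleted tumours by -0.52 ± 0.12 (adjusted p = 0.0185).

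The neighbouring genes had differences of the same sign that did not pass. Tap1, the other transporter subunit, gave -0.57 ± 0.21 on the log2 scale (SE, adjusted p = 0.118), and Psmb9, another immunoproteasome subunit, -0.57 ± 0.21 (adjusted p = 0.110). Nlrc5, the class I transactivator, was 62.2 to 92.2 CPM in floxed tumours and 40.5 to 60.7 CPM in Hmgb1-deleted tumours, without overlap, and gave -0.43 ± 0.13 (adjusted p = 0.0569). H2-D1 gave -0.54 ± 0.16 (adjusted p = 0.0611). The summed level of the hepatocyte markers was 68060 to 167300 CPM in Hmgb1-deleted tumours (median 124100 CPM) and 107300 to 279900 CPM in floxed tumours (median 223200 CPM). Most of this sum was Alb, with means of 101100 CPM in Hmgb1-deleted and 173400 CPM in floxed tumours. The median log2 difference of the 5 markers was -0.76, with -0.99 for Apoa1 (adjusted p = 0.0834) and -0.76 for Alb (adjusted p = 0.183), and none passed. The means of Alb, Apoa1, Ttr and Serpina1a were lower in Hmgb1-deleted than in floxed tumours, while the Hnf4a mean was higher. Hnf4a was 410.4 to 885.5 CPM in Hmgb1-deleted and 349.6 to 994.3 CPM in floxed tumours. The part of these markers in the class I differences was not tested. Tapbp, tapasin, lay between 91.8 and 132 CPM in all 15 libraries and passed in no comparison.

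Against normal liver the same genes were higher in floxed tumours: Nlrc5 by 1.17 ± 0.16 (SE, adjusted p = 0.000266), Psmb8 by 1.07 ± 0.16 (adjusted p = 0.000404), Tap1 by 0.81 ± 0.27 (adjusted p = 0.0319), Psmb9 by 0.71 ± 0.27 (adjusted p = 0.0462) and Tap2 by 0.54 ± 0.15 (adjusted p = 0.0131). In Hmgb1-deleted tumours Nlrc5 was higher than normal liver by 0.72 ± 0.15 (adjusted p = 0.00649). Psmb8 gave 0.24 ± 0.20 (adjusted p = 0.358), Tap1 0.23 (adjusted p = 0.233), Psmb9 0.13 (adjusted p = 0.501) and Tap2 0.01 ± 0.10 (adjusted p = 0.951) there. The genotype test that bears on this contrast is the one given above, which passed for Psmb8 and Tap2.

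**Figure D4:**
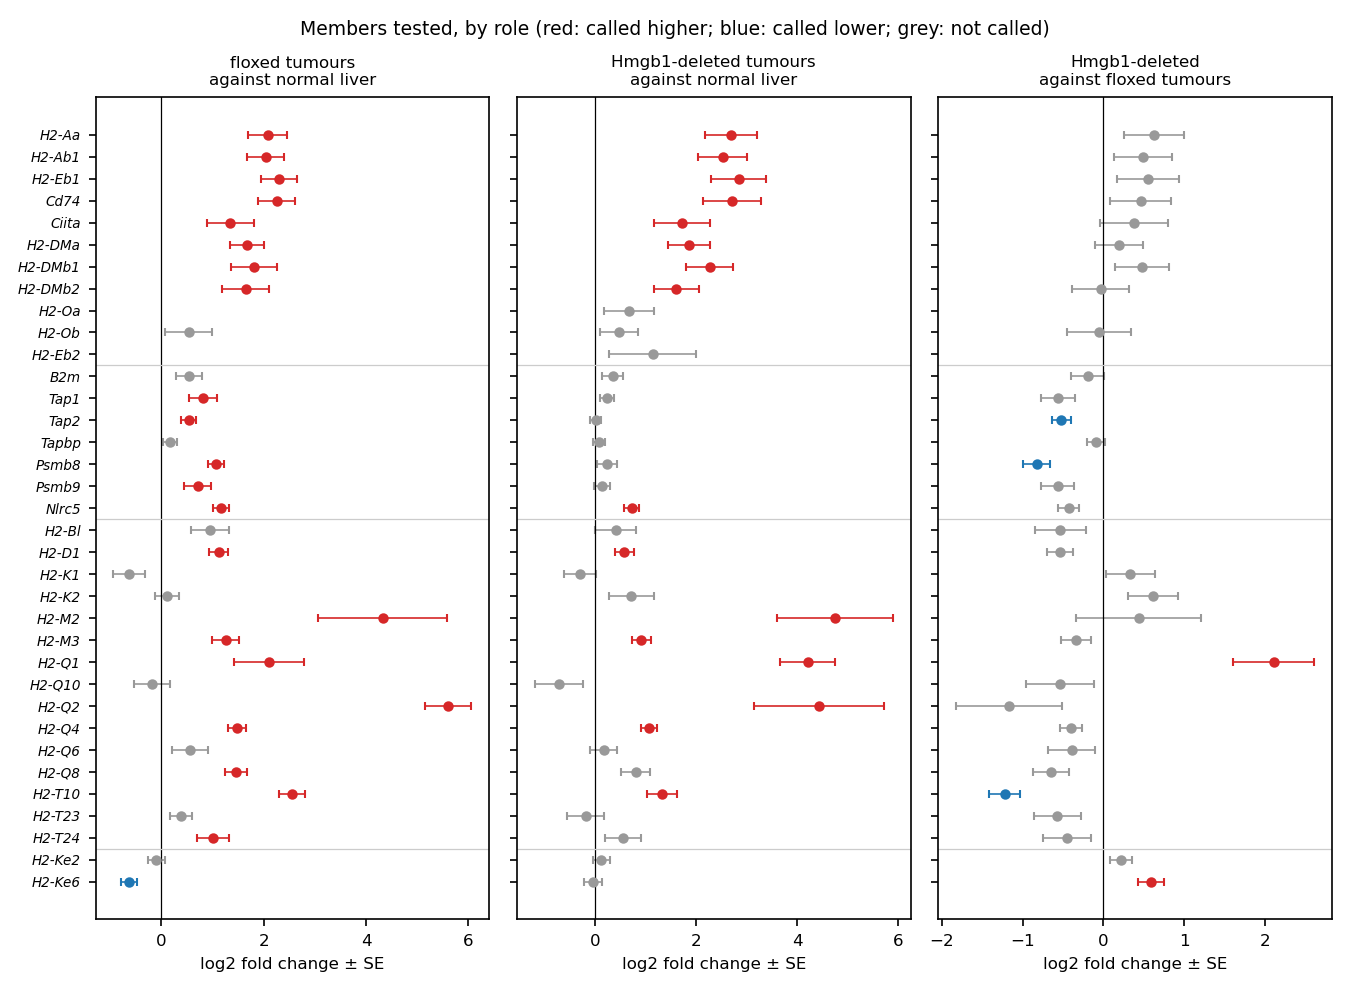
Log2 fold changes with SE (x axis) of the tested members in the 3 comparisons, ordered by role. Red points were called higher and blue points lower at adjusted p under 0.05, and grey points were not called. The panels have their own x ranges. H2-Ea-ps is left out for want of counts in normal liver. The class II genes lie right of 0 in both comparisons with normal liver, and Psmb8, Tap2 and H2-T10 are the blue points between the tumour groups.

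The genotype calls were counted again without the libraries that stood apart, which were picked by the level of a member, H2-Ea-ps. Without Hmgb1-deleted tumours 3 and 4, the 2 members called were H2-T10 and Psmb8, among 422 genes called. Without floxed tumours 3 and 5 as well, 4 libraries a group remained. There edgeR called 0 of 34 members, with 13 at an unadjusted p under 0.05. Over all genes it called 91 of 13517, against 1045 with all 12 tumours. Fewer libraries lower the power for every gene, so the lost calls do not measure how far a call rests on those libraries. On those 8 libraries DESeq2 called 8 members and limma-voom 8, with H2-D1, H2-Q1, H2-T10, Psmb8, Psmb9 and Tap2 called by both. Calls over all genes were not counted for these 2 fits, so the 8 have no share to stand beside. With all 12 tumours DESeq2 called 1954 of 13339 genes and voom 1511 of 13433. Psmb8 was lower by -0.85 and Tap2 by -0.64 on the log2 scale in that smaller edgeR fit (adjusted p = 0.0808 and 0.0666).

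Some calls also changed when 1 library was left out. Between the genotypes H2-Q1 missed the threshold without floxed tumour 3 (adjusted p = 0.0538), while Psmb9 passed as lower without floxed tumour 5 (adjusted p = 0.0445), and H2-D1 and H2-Q8 passed as lower without Hmgb1-deleted tumour 6 (adjusted p = 0.0436 and 0.0438). H2-T10, Psmb8 and Tap2 kept their call whichever single library was left out. In floxed tumours against normal liver B2m passed as higher without floxed tumour 5, by 0.66 on the log2 scale (adjusted p = 0.00640), as did H2-T23 by 0.50 (adjusted p = 0.0140) and H2-Bl (adjusted p = 0.0494; 0.0378 without floxed tumour 6). Psmb9 lost its call without any 1 of floxed tumours 1 to 4 or of the normal livers (adjusted p = 0.0507 to 0.151). Tap1 lost it without floxed tumour 1 or 4 or any normal liver (0.0526 to 0.120). Ciita lost it without floxed tumour 4 or normal liver 2 or 3 (0.0520 to 0.119). Tap2 and H2-M2 lost it without normal liver 1 or 3 (0.0572 to 0.0598), H2-Q1 without normal liver 1 or 2 (0.0963 and 0.0975), H2-T24 without normal liver 2 or 3 (0.0832 and 0.0760) and H2-DMb2 without normal liver 3 (0.0586). In Hmgb1-deleted tumours against normal liver H2-D1, H2-DMb2, H2-Ea-ps, H2-Q2 and Ciita lost their calls without any 1 normal liver (adjusted p = 0.0564 to 0.151), and H2-M2 without normal liver 1 (0.0587). There H2-D1 also lost it without Hmgb1-deleted tumour 3, 4 or 6 (0.0514 to 0.0594) and Ciita without tumour 2 (0.0597), while H2-Q8 passed without tumour 1, 4 or 5 (0.0368 to 0.0497).

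H2-Ke6 and H2-Ke2 carry H2 names from their position but do not present antigen. H2-Ke6 encodes a dehydrogenase of mitochondrial fatty acid synthesis and H2-Ke2 a prefoldin subunit. H2-Ke6 was 39.4 to 59.6 CPM in floxed tumours, 54.4 to 95.5 CPM in Hmgb1-deleted tumours and 67.9 to 82.6 CPM in normal livers. It was the only member called lower in floxed tumours than in normal liver (-0.62 ± 0.15, SE, adjusted p = 0.00697), and it was higher in Hmgb1-deleted than in floxed tumours (0.59 ± 0.16, adjusted p = 0.0418). The second call was lost in 13 of 25 other settings, 8 of which left out 1 library (Hmgb1-deleted tumour 3, 4 or 6, or a floxed tumour other than 3), and the gene shares 62.9% of its sequence with another annotated transcript. H2-Ke2 passed in no comparison.

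Among the other members tested and never called, the most abundant were H2-Q10 and H2-T23. H2-Q10 was 554 to 2136 CPM in floxed tumours, 343 to 1978 CPM in Hmgb1-deleted tumours and 1664 to 2254 CPM in normal livers. Floxed tumour 5 and Hmgb1-deleted tumours 2 and 5 were the lowest 3 libraries. H2-T23, known as Qa-1 and a ligand of the inhibitory NKG2A receptor, was 131 to 246 CPM, 56.6 to 206 CPM and 147 to 195 CPM in the same order of groups. H2-K2, H2-Q6, H2-Bl and H2-Eb2 were below 30 CPM in every library.

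Of 19 other class I processing genes outside the members, 1 rose and 4 fell in floxed tumours against normal liver, and the same numbers did so in Hmgb1-deleted tumours. In either direction together, both are smaller shares than the 48.7% and 34.7% called over all genes in those comparisons. Called higher over all genes were 24.9% and 18.1%, and called lower 23.8% and 16.6%. Erap1, which trims peptides in the endoplasmic reticulum, fell by -1.19 (adjusted p = 0.000240) and -1.01 (adjusted p = 0.00211). Lap3, a leucine aminopeptidase, fell by -1.35 (adjusted p = 0.000263) and -0.83 (adjusted p = 0.0239). Fcgrt, the neonatal Fc receptor chain that pairs with B2m, fell by -1.16 (adjusted p = 0.000189) and -0.72 (adjusted p = 0.0282). None of the 19 was called between the tumour genotypes, where 7.78% of all genes were called.

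Of 18 other class II processing and costimulation genes, 8 rose and 2 fell in floxed tumours against normal liver. In Hmgb1-deleted tumours 6 rose and 1 fell. Over all genes 48.7% and 34.7% were called in either direction in these comparisons. Called higher were 24.9% and 18.1%, smaller shares than those that rose here. Cd40, the costimulatory receptor of antigen-presenting cells, had a mean of 14.4 ± 5.65 CPM (SD) over 6 floxed tumours, 2.98 ± 0.880 CPM over 6 Hmgb1-deleted tumours and 0.568 ± 0.212 CPM over 3 normal livers. It was lower in Hmgb1-deleted than in floxed tumours by -2.25 ± 0.27 (SE, adjusted p = 0.00129). Lgmn, an endosomal protease, was also lower by -1.21 (adjusted p = 0.00708), and March8, a ubiquitin ligase, was higher by 0.73 (adjusted p = 0.0129). These 3 of the 18 were called between the genotypes, a larger share than the 7.78% of all genes called there. Ctss, the protease that trims the invariant chain, was higher in Hmgb1-deleted tumours than in normal liver by 1.74 (adjusted p = 0.00423).

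Of 23 interferon genes tested, 8 rose and 1 fell in floxed tumours against normal liver, and 12 rose and 0 fell in Hmgb1-deleted tumours. Taken in either direction, the first is a smaller share than the 48.7% called over all genes, and the second a larger one than 34.7%. Over all genes, 24.9% and 18.1% were called higher, smaller shares than those of the interferon genes that rose. Ifngr1, the ligand-binding chain of the interferon gamma receptor, averaged 90.0 ± 14.1 CPM (SD, n = 6), 49.98 ± 12.4 CPM (SD, n = 6) and 19.7 ± 1.39 CPM (SD, n = 3) in floxed tumours, Hmgb1-deleted tumours and normal livers. It was lower in Hmgb1-deleted than in floxed tumours by -0.82 (adjusted p = 0.0143). Ifit3, an interferon-induced gene, was higher by 0.76 (adjusted p = 0.0262). The other 21 did not pass between the genotypes, where 7.78% of all genes were called.

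Markers of antigen-presenting and lymphoid cells differed from list to list. Over all genes, 24.9% were called higher in floxed and 18.1% in Hmgb1-deleted tumours against normal liver, and the counts of each list stand beside these. Of 12 dendritic cell markers, 6 rose in floxed and 7 in Hmgb1-deleted tumours against normal liver, with summed levels of 23.8 to 85.4 CPM, 26.9 to 58.0 CPM and 14.6 to 18.7 CPM in floxed tumours, Hmgb1-deleted tumours and normal livers. Fscn1, the marker of highest mean in floxed tumours, was 6.96 to 43.5 CPM, 6.44 to 14.7 CPM and 3.50 to 5.42 CPM. Itgax, an integrin on the list, was 4.89 to 22.9 CPM, 3.77 to 24.5 CPM and 0.89 to 1.10 CPM. Zbtb46 had lower means in tumours (3.10 and 2.98 CPM) than in normal livers (4.20 CPM). Xcr1 had a lower mean in floxed tumours (0.626 CPM) than in normal livers (0.801 CPM). In either comparison 0 of the 12 were called lower. Of 15 macrophage and Kupffer cell markers tested, 6 rose and 1 fell in each comparison, with sums of 360 to 988 CPM, 501 to 791 CPM and 353 to 500.2 CPM, and median log2 fold changes over the list of 0.29 and 0.09. Of 13 T and NK cell markers tested, 5 and 7 rose, with sums of 9.38 to 64.5 CPM, 12.5 to 26.8 CPM and 8.67 to 12.5 CPM. B and plasma cell markers summed to 26.0 to 84.3 CPM, 12.5 to 46.5 CPM and 12.1 to 13.7 CPM, with 2 of 9 and 1 of 8 rising, shares below those over all genes. Hmgb1-deleted tumours 2 and 5, the highest libraries for the class II chains, had B and plasma cell sums of 21.3 and 12.5 CPM. Endothelial markers rose for 2 of 9 and 1 of 9. Between the tumour genotypes, where 7.78% of all genes were called (3.33% lower), none of the immune markers was called. Of the 9 endothelial markers 1 was lower. No marker was at 0 in every library of a group, and the part of cell composition in the class I and class II differences was not tested.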

How the data were processed

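Per the submitters' processing notes, reads of poly-A selected TruSeq libraries were handled with bcl2fastq 1.8.4, Bowtie2 2.2.4, TopHat2 2.1.0 and HTSeq 0.6.1 and the build mm9; how multi-mapped reads and strand were treated is not given in the sources used here. The authors deposited 1 table of raw whole-number counts per gene symbol for all 15 libraries. The members and gene lists were chosen with earlier results of these data known.

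Counts were tested on the whole table with edgeR 4.0.16 in R 4.3.3 (filterByExpr, TMM, robust quasi-likelihood F test, Benjamini-Hochberg adjustment over all genes tested, threshold 0.05), for each pair of groups alone. On simulated counts the test recovered 50.0% of 2-fold changes between the genotypes. Against normal liver it recovered 36.0% for floxed and 29.0% for Hmgb1-deleted tumours. For 4-fold changes these were 86.0%, 84.0% and 77.0%. A gene that did not pass may therefore still differ. CPM use TMM-scaled totals. Single values and relations were tested on log2(CPM + 1) by exact permutation or 100000 resamples. Dispersion was estimated from the samples of each comparison. Named were every member called in any comparison, the classical chains, editors and partners whether called or not, up to 4 genes of smallest p per comparison from each pathway list, and up to 3 of the highest level from each cell list; where fewer are printed the rest are given as counts.

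Alternatives were RLE and upper-quartile factors, no filter, a 1 CPM filter, DESeq2 1.42.0, limma 3.58.1 (voom with sample weights), 1 fit over all samples, a replicate block and each library left out. Chosen after seeing the data were library totals without a factor and fits without the tumours that stood apart. Shared 50-base runs used GENCODE transcripts of GRCm38 and promoters RefSeq's GRCm38.p6 table, which held 36 members. Replicate libraries were not repeats of one another: the most alike pair, normal livers 1 and 2, had a chi-square of 27.9 per degree of freedom. Intervals and ratios cover counting error only, and polymerase copies were not separated by molecular identifiers.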

Additional observations from a re-analysis of the deposited data

Results flagged for a closer look

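Over 72 sets of values (a member in a tumour group of 6 libraries), 2 held a library far from the others of its group, and chance alone gives about 1 in 20. H2-T23 in floxed tumour 5 was 131 CPM, with the nearest floxed tumour at 221 CPM and the highest at 246 CPM, a gap of 0.782 of the group's range. B2m in floxed tumour 5 was 1700 CPM, with the nearest at 2940 CPM and the highest at 3360 CPM, a gap of 0.748 of the range. Floxed tumour 5 was also the lowest of its group for H2-K1 and H2-Q10.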

How the results depend on the processing

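Of 2289 pairs of a member's test and another setting, 2148 kept their side of the threshold, 85 lost a call and 56 gained one. In 0 pairs did the sign change where either fit passed. Sign changes where neither fit passed count among the 2148, as for Cd74 between the genotypes without Hmgb1-deleted tumours 2 and 5. Cd74, H2-Aa, H2-Ab1, H2-Eb1, H2-DMa, H2-DMb1, H2-M3, H2-Q4 and H2-T10 kept their calls against normal liver in every setting run, for both tumour groups. Between the genotypes the 5 calls became 9 with DESeq2, 8 with voom, 3 with library totals without a factor, 2 without Hmgb1-deleted tumours 3 and 4 and 0 in the edgeR fit without floxed tumours 3 and 5 as well. With 1 library left out there were 4 to 6. The replicate block gave 3 calls there, but same-numbered tumours correlated at only -0.191 to 0.175, so the numbers were not taken as pairs. Leaving out 1 library gave 17 to 27 calls for floxed tumours and 11 to 18 for Hmgb1-deleted tumours against normal liver, with 11 of 17 left without normal liver 1. Hmgb1 in Hmgb1-deleted tumours against normal liver was -0.384 without a factor (exact permutation p = 0.190) and -0.793 to -0.465 with 1 library left out, where 2 normal livers allow no exact p under 0.0714. Irf1 with Psmb9 gave r = 0.714 without a factor (adjusted permutation p = 0.0146). Calls over all genes between the genotypes were 1045, against 1954 with DESeq2, 1629 in 1 fit over all samples, 589 without Hmgb1-deleted tumour 4, 422 without tumours 3 and 4 and 91 without all 4. For Hmgb1-deleted tumours against normal liver they were 4787, against 3055 with the block and 2113, 2227 and 3109 without normal liver 1, 2 or 3. Without a factor the median gene moved to 0.20 between the genotypes, where 982 genes were higher and 257 lower (598 and 447 with TMM), and to 0.33 for Hmgb1-deleted tumours against normal liver (2969 and 1062, from 2492 and 2295). Upper-quartile factors gave 4363 higher and 2509 lower for floxed (3437 and 3277 with TMM) and 3390 and 1578 for Hmgb1-deleted tumours. Without a factor Psmb8 (-0.60, adjusted p = 0.142) and Tap2 (-0.33, adjusted p = 0.218) kept their sign between the genotypes but not their call. The cause of these changes was not tested. H2-D1 and Nlrc5 passed as lower in Hmgb1-deleted than in floxed tumours with RLE or upper-quartile factors, DESeq2, voom and the joint fit.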
